A study of Mus musculus with 6 samples.

Results

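Collagen genes were followed in embryonic mouse hearts that had lost a pair of RNA-binding protein genes in cardiomyocytes. They were taken as all protein-coding rows of the deposited table whose symbol names a collagen chain (Col, a type number, the letter a and a chain number). This gave 44 of the 48709 genes in the table, and of its 22018 protein-coding genes. By the kind of assembly that the protein forms, 11 were fibrillar, 8 belonged to basement membranes, 9 were FACITs (fibril-associated collagens with interrupted triple helices) and 16 were of other kinds. Hearts of C57BL6/J mice were profiled by polyA RNA sequencing, with 3 libraries per genotype. Double knockouts carried RBPMS flox/flox and RBPMS2 flox/flox alleles together with a Cre that the labels call XML, described by the series as specific to cardiomyocytes. Controls were littermates with the same floxed alleles, labelled without Cre. Every control thus also carries both floxed alleles, no group carries Cre without them, and an effect of Cre alone cannot be told apart from loss of the genes. The sources used here do not give the promoter that drives Cre, the day of gestation, or whether a library pooled several hearts. Other cells of the heart keep both genes by design, and the libraries hold RNA of all its cells.

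Collagens are the main structural proteins of the extracellular matrix. Each molecule is a trimer of chains wound into a triple helix. Its sequence repeats as Gly-X-Y triplets, since glycine alone is small enough for the centre of the helix. Fibrillar collagens (types I, II, III, V, XI, XXIV and XXVII) assemble into banded fibrils that bear tension. Type IV collagen forms the sheet of basement membranes, where collagens XV and XVIII are also found, and FACITs decorate the surface of fibrils. In the embryonic heart collagens come largely from non-muscle cells, among them fibroblasts, epicardium, endocardium, and the cushion mesenchyme that gives rise to the valves.

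The repeat that defines the family can be read in the coding sequence as a glycine codon (GG followed by any base) that opens each triplet of codons. Stretches of 45 bases from the longest such run are shown for the 3 genes that rose in the knockout, for Col2a1, which had the largest negative difference among the members and was chosen after its values were seen, and for Col4a1, the member with the highest level per kilobase of exon. Capitals mark the glycine codons. Sequences are 5′ to 3′ on the coding strand from GENCODE M21 transcripts, with positions on GRCm38 (the assembly of mm10).
Col20a1 (chr2:181013236-181013280, plus strand): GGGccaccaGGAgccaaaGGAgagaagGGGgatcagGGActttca
Col12a1 (chr9:79612925-79612969, minus strand): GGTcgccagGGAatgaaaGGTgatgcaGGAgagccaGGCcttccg
Col23a1 (chr11:51557471-51557515, plus strand): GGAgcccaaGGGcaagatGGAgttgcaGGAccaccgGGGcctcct
Col2a1 (chr15:97996648-97996692, minus strand): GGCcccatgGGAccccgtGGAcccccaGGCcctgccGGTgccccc
Col4a1 (chr8:11247051-11247095, minus strand): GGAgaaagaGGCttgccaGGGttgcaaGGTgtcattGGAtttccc
The length of the longest unbroken run separated the fibrillar class from the rest. It was 216 to 344 glycine-led triplets in the 11 fibrillar genes, against 32 to 113 in FACITs, 30 to 66 in basement membrane collagens and 23 to 87 in the others. Runs of at least 3 triplets took up 79.7% of the codons of Col4a1 and 73.4% of those of Col2a1. They took up 11.0% of those of Col20a1 and 8.19% of those of Col12a1, whose proteins are made mostly of other domains. In Col23a1 the share was 69.4%.

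Values below are normalised read counts as deposited. Deposited totals were 19770390 to 20215282 per library, and 34 of the 44 members had a mean of at least 50, 4 a mean of 10 to under 50 and 6 a mean under 10. Each difference is the knockout mean minus the control mean of log2(value + 1), given with its SE, and this scale understates changes of low genes. All come from 1 limma fit over the 26747 genes tested, in which a gene passed at a Benjamini-Hochberg adjusted p under 0.05. Rbpms was at 670 to 721 in knockouts and 3551 to 3956 in controls, and Rbpms2 at 1257 to 1676 in knockouts and 2444 to 2716 in controls. Xist and Eif2s3y gave knockout 3 and control 3 a male pattern and the other libraries a female one. Over 11905 protein-coding genes of at least this mean (50), the deviation of a library followed GC content with Spearman's rho of -0.59 to 0.13 in knockouts and 0.22 to 0.40 in controls. Collagen genes with a mean of at least 50 had a median GC content of 55.9%, against 49.4% for all tested genes of that level. With the trend in GC content and length removed, Col20a1, Col12a1 and Col23a1 still passed. All tissue values are of bulk RNA, in which fewer cells of a type and less RNA per cell cannot be told apart.

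Most collagen genes did not pass the test between genotypes. Of the 44 members, all of which were tested, 3 rose in the knockout (Col20a1, Col12a1 and Col23a1) and 0 fell. This is 6.82% of the members, close to the 4.86% of all tested genes that passed (618 higher and 681 lower, or 1121 and 480 when libraries were rescaled by the upper quartile). Without the robust option of limma 1 member passed, Col20a1, and 1.31% of all tested genes did. At an unadjusted p under 0.05, 6 members were higher and 1 was lower, 15.9% of the members against 18.7% of all tested genes. The groups did not overlap in 6 members that were higher and 1 that was lower, also 15.9%, against 21.7% of all tested genes. These were Col20a1, Col12a1, Col9a2, Col23a1, Col6a6 and Col4a5 above and Col2a1 below. The median difference over the members was 0.16, and it was 0.02 over all tested genes. By class the median was 0.00 for fibrillar, 0.08 for basement membrane, 0.39 for FACIT and 0.36 for the other collagens. These medians include genes of low value. The fibrillar median is the difference of Col24a1, which was at 12 to 20 in every library. In the other class Col6a4, Col6a5, Col10a1 and Col28a1, at or below 14, all had positive differences.

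**Figure D1:**
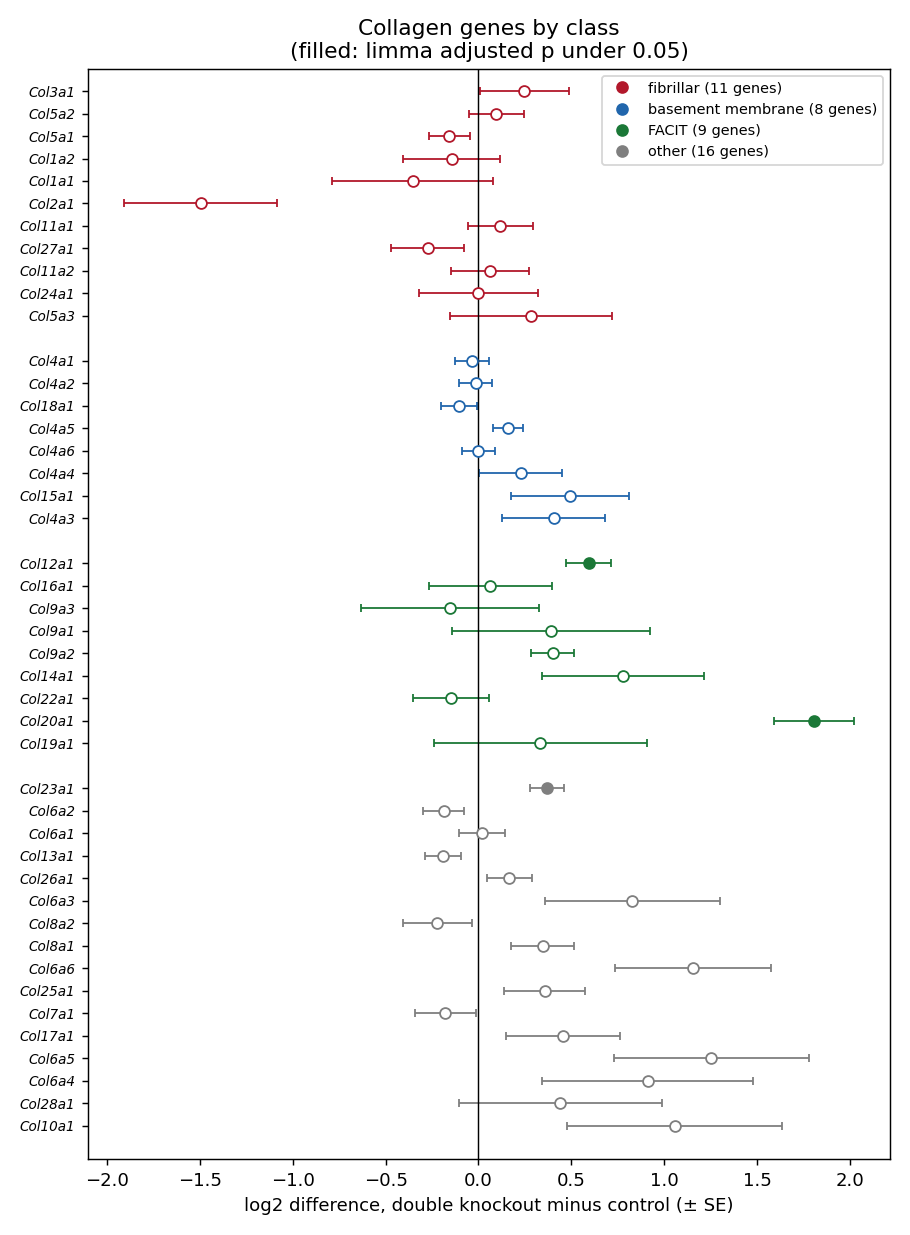
The x axis gives the log2 difference (double knockout minus control) with its SE for each of the 44 collagen genes, listed by class and by falling mean value, with filled points for those past the threshold. Col20a1 at 1.81 and Col2a1 at -1.50 lie farthest from 0, while Col4a1, Col4a2, Col18a1 and Col4a6 lie close to it.

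Of the 9 FACIT genes, 2 rose and 0 fell, where 2.31% of all tested genes were called higher and 2.55% lower. Col20a1 (chromosome 2, 180986535 to 181018363, plus strand) encodes the chain of collagen XX, a scarce FACIT. It had 100, 66 and 86 in knockouts 1 to 3, against 24, 21 and 24 in controls 1 to 3. The lowest knockout library was thus well above the highest control. The mean was 84.0 ± 17.1 in knockouts and 23.0 ± 1.73 in controls (SD, n = 3 each), a ratio of 3.65 and a log2 difference of 1.81 ± 0.22 (adjusted p = 3.10e-05). Leaving out any single library kept the call (highest adjusted p = 0.00329), and so did omitting the robust option (adjusted p = 0.0143). Without both libraries numbered 3, which leaves 2 per genotype, the difference was 1.81 and the adjusted p 0.0839. With these libraries as a term in the fit Col20a1 still passed (adjusted p = 6.75e-05). A gene annotated on the same strand, BX649560.1, shares 79 bases of its exons, 1.54% of them.

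Col12a1 (chromosome 9, 79598991 to 79718831, minus strand) encodes collagen XII, a large FACIT of tissues under load. It had 1432, 1339 and 1412 in knockouts, against 797, 1179 and 837 in controls. Knockout libraries were close together, while control 2 lay well above the other controls. The difference was 0.59 ± 0.12 (adjusted p = 0.0109), with means of 1394 ± 49.0 in knockouts and 938 ± 210.0 in controls (SD, n = 3 each). This call was lost without control 1 (adjusted p = 0.0730), control 3 (0.0787), knockout 1 (0.0532) or knockout 3 (0.0756), and without the robust option (0.109). Without both libraries numbered 3, which leaves 2 per genotype, it was also lost (0.425). With these libraries as a term in the fit it was kept (adjusted p = 0.0128).

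Type IX collagen coats cartilage-type fibrils and is built from the products of Col9a1, Col9a2 and Col9a3. Col9a2 had 359, 341 and 306 in knockouts, against 247, 285 and 231 in controls, without overlap. Its difference of 0.40 ± 0.12 missed the threshold (adjusted p = 0.0549), which it passed in 7 of 18 alternatives, among them removal of the GC and length trend (0.00474). Neither partner passed in the same fit. Col9a1 had 311, 634 and 188 in knockouts, against 272, 310 and 195 in controls (0.39 ± 0.53, adjusted p = 0.754). Col9a3 had 435, 529 and 175 in knockouts, against 376, 395 and 375 in controls (-0.15 ± 0.48, adjusted p = 0.894). In both, knockout 2 was the highest of the 6 libraries and knockout 3 the lowest. Tcfl5, on the opposite strand, shares 6.07% of the exon bases of Col9a3, and whether reads were counted by strand is not stated in the sources used.

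None of the other FACITs passed. Col14a1, for collagen XIV, had 177, 385 and 188 in knockouts, against 114, 208 and 106 in controls (0.78 ± 0.44, adjusted p = 0.431). Here libraries numbered 2 were the highest of each genotype. Col16a1, the FACIT gene with the highest level per kilobase of exon in both genotypes, had 791, 1205 and 559 in knockouts, against 708, 936 and 703 in controls (0.06 ± 0.33, adjusted p = 0.940). Col22a1, known from tissue junctions, was at 77 to 124 in knockouts and 85 to 143 in controls (-0.15 ± 0.20, adjusted p = 0.736). Col19a1 had 1 in each knockout and 0 or 1 in controls, too few reads to compare.

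Among the 16 other collagens, 1 rose and 0 fell, 6.25% against 4.86% of all tested genes. Col23a1 (chromosome 11, 51289920 to 51583918, plus strand) encodes a transmembrane collagen that can be shed from the cell surface. It had 1864, 2216 and 2089 in knockouts, against 1657, 1658 and 1461 in controls. The groups did not overlap, and the difference of 0.37 ± 0.09 (adjusted p = 0.0240) was a ratio of means of 1.29. The call was lost without control 1 (adjusted p = 0.0944), control 3 (0.193), knockout 2 (0.0708) or knockout 3 (0.111). It was also lost without both libraries numbered 3 (0.453) and without the robust option (0.104). With the libraries numbered 3 as a term in the fit it was kept (0.0378). The other membrane-spanning collagens did not pass. Col13a1 had 709, 823 and 659 in knockouts, against 878, 795 and 820 in controls (-0.19 ± 0.10, adjusted p = 0.295). Col25a1 was at 79 to 157 in knockouts and 73 to 105 in controls (0.36 ± 0.22, adjusted p = 0.413). Col17a1, for the hemidesmosomal collagen XVII, was at 19 to 34 in knockouts and 13 to 27 in controls (0.46 ± 0.31, adjusted p = 0.453).

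Collagen VI forms beaded microfilaments around cells from a trimer of the products of Col6a1, Col6a2 and a longer chain. The usual long chain is that of Col6a3, which those of Col6a4, Col6a5 or Col6a6 can replace. Col6a6 had 115, 217 and 120 in knockouts, against 40, 106 and 62 in controls. The lowest knockout value stood only just above the highest control, and the difference of 1.16 ± 0.42 did not pass (adjusted p = 0.219). It passed without a filter on low values (adjusted p = 9.41e-06) and without control 2 (a difference of 1.51, adjusted p = 0.0164). Col6a3 had 319, 598 and 282 in knockouts, against 192, 338 and 147 in controls (0.83 ± 0.47, adjusted p = 0.448). As for Col14a1, library 2 was the highest of each genotype in both genes. Col6a1 was at 853 to 1221 in knockouts and 981 to 1166 in controls (0.02 ± 0.12, adjusted p = 0.955). Col6a2 was at 996 to 1349 in knockouts and 1196 to 1417 in controls (-0.19 ± 0.11, adjusted p = 0.375).

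The remaining members of this class did not pass either. Col8a1 and Col8a2 encode the chains of collagen VIII, a short-chain network collagen of vessels. Col8a1 was at 116 to 138 in knockouts and 76 to 119 in controls (0.35 ± 0.17, adjusted p = 0.283). Col8a2 was at 142 to 257 in knockouts and 194 to 258 in controls (-0.22 ± 0.19, adjusted p = 0.566). Col26a1 was at 698 to 1010 in knockouts and 671 to 740 in controls (0.17 ± 0.12, adjusted p = 0.493). Col7a1, for anchoring fibrils, was at 75 to 100 in knockouts and 95 to 103 in controls (-0.18 ± 0.16, adjusted p = 0.591). Col6a4, Col6a5, Col10a1 (a marker of hypertrophic cartilage) and Col28a1 stayed at or below 14 in every library.

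**Figure D2:**
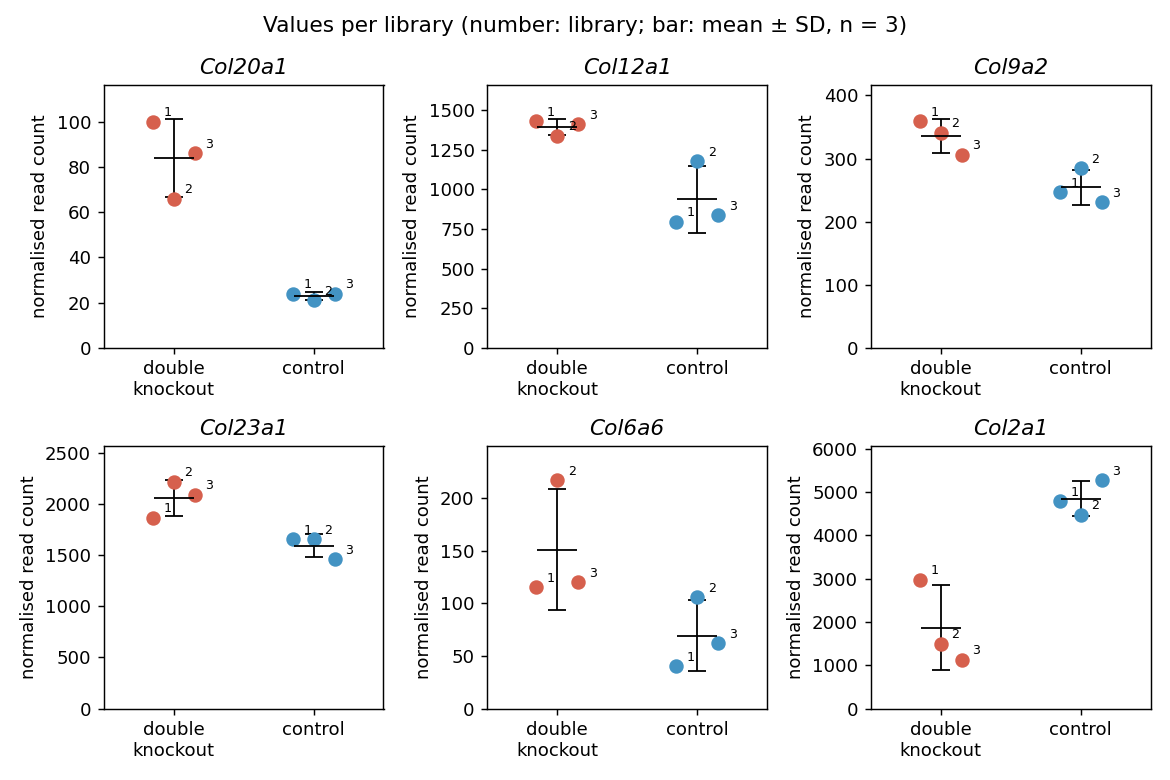
Each panel gives the normalised read count of 1 collagen gene in the 3 double knockout and the 3 control libraries, numbered, with the mean and SD as bars. All 3 knockout values of Col20a1 and Col12a1 lie above all 3 control values, those of Col2a1 lie below, and the Col2a1 values of the knockouts are spread from 1129 to 2976.

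None of the 11 fibrillar genes passed with limma, and 1 had an unadjusted p under 0.05. That gene was Col2a1 (chromosome 15, 97975602 to 98004695, minus strand), for collagen II, the fibrillar collagen of cartilage that is also made in developing heart valves. It had 2976, 1499 and 1129 in knockouts, against 4782, 4479 and 5278 in controls. Each knockout library lay below each control, and knockouts 2 and 3 were far below knockout 1. The mean was 1868 ± 977 in knockouts and 4846 ± 403 in controls (SD, n = 3 each), a ratio of 0.385. The difference of -1.50 ± 0.41 did not pass (limma adjusted p = 0.170). Without knockout 1 it was -1.89 and passed (adjusted p = 1.72e-05), while in the other alternatives it did not.

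Genes linked to Col2a1 did not pass the test. Col11a1, for a chain of collagen XI, which is built into type II fibrils, was at 374 to 599 in knockouts and 366 to 523 in controls (0.12 ± 0.18, adjusted p = 0.767). Col11a2 was at 66 to 121 in knockouts and 70 to 91 in controls (0.06 ± 0.21, adjusted p = 0.897). Of 8 chondrocyte markers 0 were called with limma and 2 had an unadjusted p under 0.05, both lower, with a median difference of -0.26. Comp, a cartilage matrix protein with the most negative difference of the list, had 13, 24 and 15 in knockouts, against 46, 48 and 20 in controls (-1.04 ± 0.33, adjusted p = 0.0846). Lect1, for chondromodulin, had 3, 5 and 3 in knockouts, against 10, 5 and 7 in controls (-0.82 ± 0.44, adjusted p = 0.329). Their groups overlapped. The summed value of all 8 markers was 2667 to 4044 in knockouts and 3756 to 4424 in controls, and Hapln1 held most of it. Differences were positive in 3 of the 8 markers and negative in 5. Hapln1, a link protein of matrix aggregates, had 3071, 3377 and 2327 in knockouts, against 3853, 3824 and 3281 in controls (adjusted p = 0.143). Sox9, the transcription factor that activates Col2a1 in cartilage, had 380, 552 and 218 in knockouts, against 400, 461 and 371 in controls (adjusted p = 0.829). The cartilage markers Matn1 and Ucma were at 0 to 2 in every library. Of 7 valve and cushion markers tested, which share Sox9, Hapln1 and Acan with that list, 0 were called and 1 had an unadjusted p under 0.05, with a summed value of 33780 to 37770 in knockouts and 32096 to 36699 in controls. Vcan alone, at 30744 to 32738 in knockouts and 27805 to 31676 in controls, held most of this sum, in which the other markers hardly count. The part of any cell type in the Col2a1 difference was not tested.

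The abundant fibrillar genes of connective tissue differed more between libraries than between genotypes. Col3a1, for collagen III, had 12890, 17273 and 9639 in knockouts, against 11707, 11931 and 9187 in controls (0.25 ± 0.24, adjusted p = 0.643). Col1a1 and Col1a2 encode the chains of collagen I. Col1a1 had 2710, 4808 and 2046 in knockouts, against 3473, 5339 and 3004 in controls (-0.35 ± 0.43, adjusted p = 0.717). Col1a2 had 4139, 5884 and 3131 in knockouts, against 4260, 5491 and 4401 in controls (-0.14 ± 0.26, adjusted p = 0.815). In these 3 genes knockout 2 and control 2 were the highest libraries of their genotype.

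Collagen V starts and limits the diameter of collagen I fibrils. Col5a2 had 5468, 7689 and 5825 in knockouts, against 6107, 6785 and 4830 in controls (0.10 ± 0.15, adjusted p = 0.775). Col5a1 had 4975, 4778 and 3619 in knockouts, against 4785, 5419 and 4613 in controls (-0.16 ± 0.11, adjusted p = 0.473). Col27a1 was at 163 to 304 in knockouts and 258 to 320 in controls (-0.27 ± 0.20, adjusted p = 0.494). Col24a1 held the values 20, 14 and 12 in knockouts and 14, 20 and 12 in controls, and Col5a3 stayed at or below 9.

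The spread among knockout libraries had a shape shared by many members. Knockout 2 was the single highest of the 6 libraries in 19 of 44 members (43.2%), against 15.8% of all tested genes. Knockout 3 was the single lowest in 16 members (36.4%), against 16.5% of all tested genes. It is also the library whose deviations followed GC content most closely, with rho of -0.59, against -0.18 in knockout 2, and the part of GC content in this pattern was not tested. Over the 34 members with a mean of at least 50, the median SD on the log2 scale was 0.32 among knockouts and 0.17 among controls. It was 0.13 among knockouts and 0.09 among controls over all 13805 genes of that level. The SD was wider among knockouts in 27 of the 34 members (79.4%), and in 64.9% of all genes of that level.

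Markers of fibroblasts had the same order of libraries. The 12 fibroblast markers summed to 12283, 17816 and 10484 in knockouts, against 12344, 13966 and 11583 in controls. The fibrillar genes summed to 34038, 42923 and 26014 in knockouts, against 35912, 40392 and 32044 in controls. In both sums knockout 2 was the highest library and knockout 3 the lowest, and the part of fibroblast content in the collagen values was not tested. Of the fibroblast markers 1 rose (Gsn, an actin-severing protein that many cells make) and 1 fell (Fbln1, which is also in a list below). This was 16.7% of the fibroblast markers, against 4.86% of all tested genes, with a median difference of 0.24. Pdgfra, the growth factor receptor that marks these cells, was at 1049 to 2906 in knockouts and 1216 to 1666 in controls (adjusted p = 0.799). Of 8 epicardial markers 2 rose (Krt19 and Muc16) and 0 fell, 25.0% against the 4.86% called among all tested genes. At an unadjusted p under 0.05, 3 were higher and 2 lower, 62.5% against 18.7%, and the median difference was 0.05. Wt1 was at 521 to 655 in knockouts and 632 to 750 in controls and did not pass. Their summed value was 6452 to 8041 in knockouts and 6223 to 7664 in controls.

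**Figure D3:**
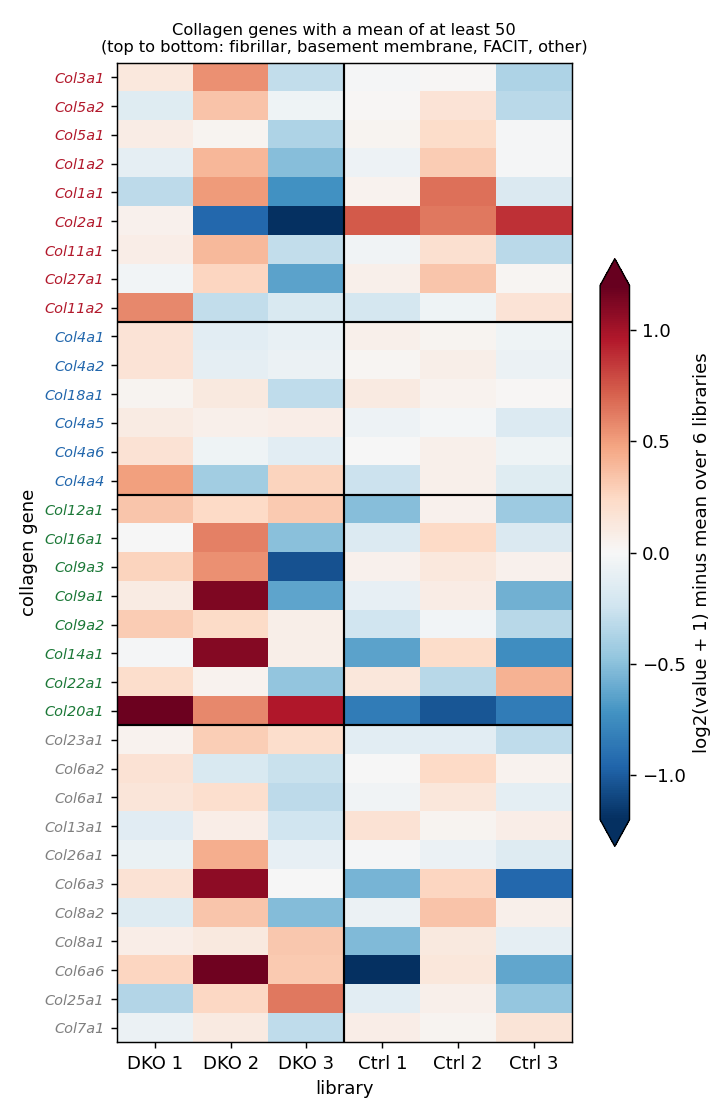
Colour gives log2(value + 1) minus its mean over the 6 libraries for the 34 collagen genes with a mean of at least 50 (rows, by class) in each library (columns, DKO for double knockout and Ctrl for control). Knockout 2 is high in many fibrillar, FACIT and type VI genes and knockout 3 low in many, while the rows of Col4a1, Col4a2, Col4a5 and Col4a6 vary little.

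None of the 8 basement membrane genes passed with limma, and 0 had an unadjusted p under 0.05. The core chains are those of Col4a1 and Col4a2, which make up the collagen IV found in most basement membranes. Col4a1 (chromosome 8, 11198423 to 11312826, minus strand) had 28377, 23090 and 23739 in knockouts, against 26419, 25920 and 24382 in controls (-0.03 ± 0.09, adjusted p = 0.877). Col4a2 (chromosome 8, 11312805 to 11449287, plus strand) had 17234, 14265 and 14646 in knockouts, against 15642, 16144 and 14691 in controls (-0.01 ± 0.09, adjusted p = 0.950). Both had their highest library in knockout 1 and their lowest in knockout 2. Col18a1, whose product carries endostatin at its end, had 13922, 14699 and 10978 in knockouts, against 14637, 13948 and 13678 in controls (-0.10 ± 0.10, adjusted p = 0.606).

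Col4a5 and Col4a6 lie on the X chromosome and encode chains of a second collagen IV network. Col4a5 had 6668, 6490 and 6556 in knockouts, against 5978, 6135 and 5563 in controls. The groups did not overlap, although the difference of 0.16 ± 0.08 did not pass (adjusted p = 0.300), and it passed only with the GC and length trend removed (0.0415). Col4a6 was at 1550 to 1899 in knockouts and 1624 to 1756 in controls (0.00 ± 0.09, adjusted p = 1.00). Col4a3 and Col4a4, whose products are best known from the kidney glomerulus, were scarce. Col4a3 was at 29 to 35 in knockouts and 15 to 31 in controls (0.41 ± 0.28, adjusted p = 0.458), with 5.65% of its exon bases shared with C430014B12Rik on the opposite strand, and Col4a4 at 42 to 80 in knockouts and 47 to 59 in controls (0.23 ± 0.22, adjusted p = 0.621). Col15a1 was at 29 to 67 in knockouts and 21 to 40 in controls (0.49 ± 0.32, adjusted p = 0.434). Of 10 endothelial and endocardial markers, cells that lie on such membranes, 1 rose (Emcn) and 0 fell, with a summed value of 25477 to 30591 in knockouts and 23636 to 28376 in controls. Of 7 mural markers tested 0 were called and 2 had an unadjusted p under 0.05, 1 higher and 1 lower, with a summed value of 7881 to 10499 in knockouts and 8816 to 9036 in controls. Abcc9 was the largest part of this sum, at 3887 to 6195 in knockouts and 3964 to 4375 in controls. Rgs5, Kcnj8 and Myh11 stayed at or below 44 in every library and hardly count in it.

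The chains of collagen IV are encoded by head-to-head gene pairs, and the pairs differed in how tightly their values kept together. Col4a1 and Col4a2 start within 22 bases of each other on opposite strands, so that their first exons overlap. The overlap, from the RefSeq promoter windows of both genes (chr8:11312805-11312826, GRCm38.p6, plus strand), is shown because a start lies at each of its ends, with capitals for a GC box, which thus lies downstream of both starts.
Col4a1-Col4a2 overlap: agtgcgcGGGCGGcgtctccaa
The motif GGGCGG, searched on both strands in the 250 bases before the start, was in 22 of 38 windows of the 35 members matched in RefSeq by symbol (57.9%), and in 32.7% of all 32851 windows. The window before Col4a2 was among the 22, and that before Col4a1 was not. The ratio of Col4a1 to Col4a2 was 1.65, 1.62 and 1.62 in knockouts, against 1.69, 1.61 and 1.66 in controls. Its highest value was 1.05 times its lowest over all 6 libraries. The gene starts of Col4a5 and Col4a6 are separated by 1308 bases, and their ratio was 3.51, 3.98 and 4.23 in knockouts, against 3.55, 3.49 and 3.43 in controls. Knockouts 2 and 3 were above every control. The ratio of Col4a3 to Col4a4, 71 bases apart, ranged from 0.363 to 0.833 in knockouts and from 0.319 to 0.608 in controls, at low values.

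Pairs on other arrangements varied more than Col4a1 and Col4a2 in these libraries. Col3a1 and Col5a2 are neighbours with 24614 bases between them, and their ratio was 2.36, 2.25 and 1.65 in knockouts, against 1.76 to 1.92 in controls. Col6a1 and Col6a2 have 85161 bases between them, and their ratio was 0.872, 1.16 and 0.856 in knockouts, against 0.864, 0.823 and 0.794 in controls. Col1a1 and Col1a2 lie on different chromosomes although their products share a trimer. Their ratio was 0.655, 0.817 and 0.653 in knockouts, against 0.815, 0.972 and 0.683 in controls. The ratio of Col6a1 to Col6a3 was 3.69, 2.04 and 3.02 in knockouts, against 5.38, 3.45 and 6.67 in controls. Ratios are of normalised read counts, not corrected for length, and were given no test.

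**Figure D4:**
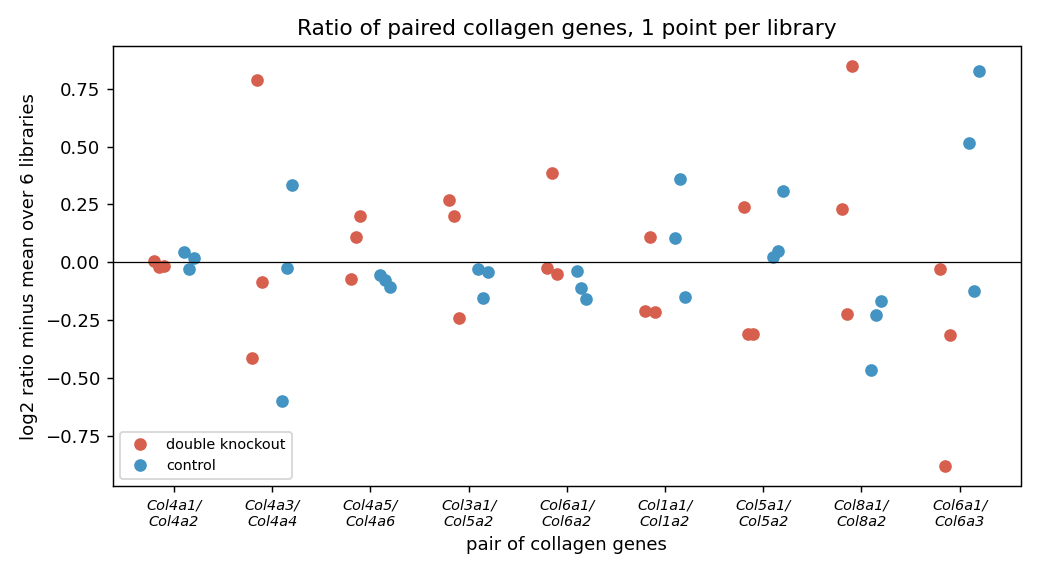
The y axis gives the log2 ratio of the normalised read counts of 2 collagen genes minus its mean over the 6 libraries, with 1 point per library and double knockouts left of controls for each pair. Points of Col4a1/Col4a2 are closest together, the highest ratio being 1.05 times the lowest, and those of Col6a1/Col6a3 are farthest apart, at 3.27 times.

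Exon length was taken over all annotated transcripts of a gene, and levels per kilobase depend on this choice. It was 12426 bases for Col1a2, with 1372 codons, against 6619 bases for Col4a2, with 1707 codons. Per kilobase of annotated exon, the basement membrane class led in every library. Its summed level per kilobase was 8769 ± 775 in knockouts and 8874 ± 344 in controls (SD, n = 3 each). The fibrillar class followed with 3649 ± 910.3 in knockouts and 3887 ± 477 in controls, then the other collagens with 1133 ± 126 and FACITs with 563 ± 155 in knockouts, against 1049.6 ± 67.4 and 447 ± 59.1 in controls. Col4a1 held 23.9% of the collagen level per kilobase in knockouts and 24.1% in controls, and Col4a2 held 16.6% in knockouts and 16.4% in controls. Col2a1 held 1.41% in knockouts and 3.70% in controls. Col23a1 held 2.56% in knockouts and 1.95% in controls. Collagen genes together made up 0.569%, 0.585% and 0.460% of the deposited total in knockouts, against 0.545%, 0.568% and 0.498% in controls.

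Genes that modify, export, cross-link, bind and degrade collagen were read from the same fit, in 7 lists chosen by function. Of 103 such genes tested, each counted once, 3 rose and 5 fell, 7.77% against 4.86% of all tested genes. The 5 include Tango2, whose link to collagen is doubtful, as said below. Shares over all tested genes, here and for each list, are not matched for level. Of the 26747 tested genes 13805 had a mean of at least 50, and the rest were lower. Among 20 genes of collagen modification and folding 2 rose and 1 fell, a larger share than the 4.86% of all tested genes, with a median of 0.05. At an unadjusted p under 0.05, 7 were higher and 2 lower, 45% against 18.7% of all tested genes. The groups did not overlap in 6 that were higher and 2 that were lower, 40% against 21.7% of all tested genes. Tmem38b, an ion channel of the endoplasmic reticulum needed for normal collagen modification in bone, had 300, 255 and 260 in knockouts, against 432, 406 and 410 in controls. It was lower without overlap (-0.62 ± 0.11, adjusted p = 0.00166), and still passed with each single library left out. Fkbp14, a prolyl isomerase of the same compartment, had 766, 901 and 938 in knockouts, against 657, 690 and 618 in controls (0.40 ± 0.10, adjusted p = 0.0199). P3h4, a partner in lysine hydroxylation of collagen, had 1257, 1481 and 1259 in knockouts, against 1074, 1095 and 1036 in controls (0.31 ± 0.09, adjusted p = 0.0493). The Fkbp14 call was lost without control 1, control 3, knockout 2 or knockout 3, and that of P3h4 without any 1 of the 6 libraries and with either other pseudocount. It was also lost with the libraries numbered 3 as a term in the fit (adjusted p = 0.0687). Both calls were lost without the robust option, with adjusted p over all alternatives up to 0.448 for Fkbp14 and 0.400 for P3h4. Serpinh1, the collagen chaperone HSP47, chosen after its values were seen, had 17935, 18840 and 15318 in knockouts, against 19462, 20518 and 20094 in controls (adjusted p = 0.199).

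In the list of collagen secretion 1 of 11 tested genes rose and 2 fell, 27.3% against 4.86% of all tested genes, with a median of 0.08. At an unadjusted p under 0.05, 3 were higher and 2 lower, 45.5% against 18.7% of all tested genes. Sec23a, a coat protein of vesicles that leave the endoplasmic reticulum, had 2732, 3036 and 3122 in knockouts, against 2162, 2296 and 2084 in controls (0.44 ± 0.09, adjusted p = 0.00439). Creb3l1, a membrane-bound transcription factor that activates collagen I genes in mouse osteoblasts, had 345, 344 and 315 in knockouts, against 442, 468 and 428 in controls (-0.41 ± 0.10, adjusted p = 0.0214). Tango2 also fell (-0.46 ± 0.10, adjusted p = 0.0115). All were without overlap between genotypes. Tango2 does not encode the collagen export receptor TANGO1, which is the product of Mia3, so that its place in this list is doubtful. Mia3 did not pass (0.13 ± 0.08, adjusted p = 0.405). The Sec23a call was lost without control 1 or 3, that of Tango2 without control 1, control 3 or knockout 3, and that of Creb3l1 without any control or without knockout 3. Tango2 and Creb3l1 also did not pass without the robust option, nor did Creb3l1 with upper quartile scaling or with the GC and length trend removed. Adjusted p over all alternatives reached 0.297 for Sec23a, 0.330 for Tango2 and 0.285 for Creb3l1.

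Of 13 genes of procollagen processing and cross-linking 0 passed with limma and 1 had an unadjusted p under 0.05. Loxl2, with the highest mean value of the list, was at 5254 to 7150 in knockouts and 5682 to 6640 in controls (adjusted p = 0.788). Among 17 tested genes of fibril-associated matrix 0 rose and 1 fell, 5.88% against 4.86% of all tested genes. That was Fbln1, for fibulin 1, with 3004, 2705 and 2150 in knockouts, against 3792, 3536 and 4093 in controls (-0.55 ± 0.11, adjusted p = 0.00571), a call lost without control 3 and without the robust option, with adjusted p over all alternatives up to 0.309. Of 19 partners in the basement membrane 0 passed with limma, while 3 were higher and 5 lower at an unadjusted p under 0.05, 42.1% against 18.7% of all tested genes. Hspg2, for perlecan, had the highest mean value, with 19043 to 26052 in knockouts and 23345 to 25785 in controls (-0.21 ± 0.11, adjusted p = 0.299), and passed without knockout 1 (-0.35, adjusted p = 0.0355).

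Among 10 collagen receptors 0 rose and 1 fell. Ddr1, a receptor tyrosine kinase that binds collagens of several types, had 3840, 3145 and 3133 in knockouts, against 5314, 5760 and 5872 in controls. No values overlapped, and the difference of -0.75 ± 0.09 (adjusted p = 4.62e-05) still passed with each single library left out. Without both libraries numbered 3 the Ddr1 and Tmem38b calls were lost (adjusted p = 0.141 and 0.184). With these libraries as a term in the fit both passed (adjusted p = 0.000156 and 0.00318). Ddr2, the paralog of fibroblasts, was at 127 to 284 in knockouts and 116 to 173 in controls (adjusted p = 0.720). Of 13 tested genes of collagen degradation 0 passed with limma and 2 had an unadjusted p under 0.05. Mmp15, a membrane-bound metalloproteinase, had the highest mean value, with 4145 to 6122 in knockouts and 5264 to 5689 in controls (adjusted p = 0.572).

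**Figure D5:**
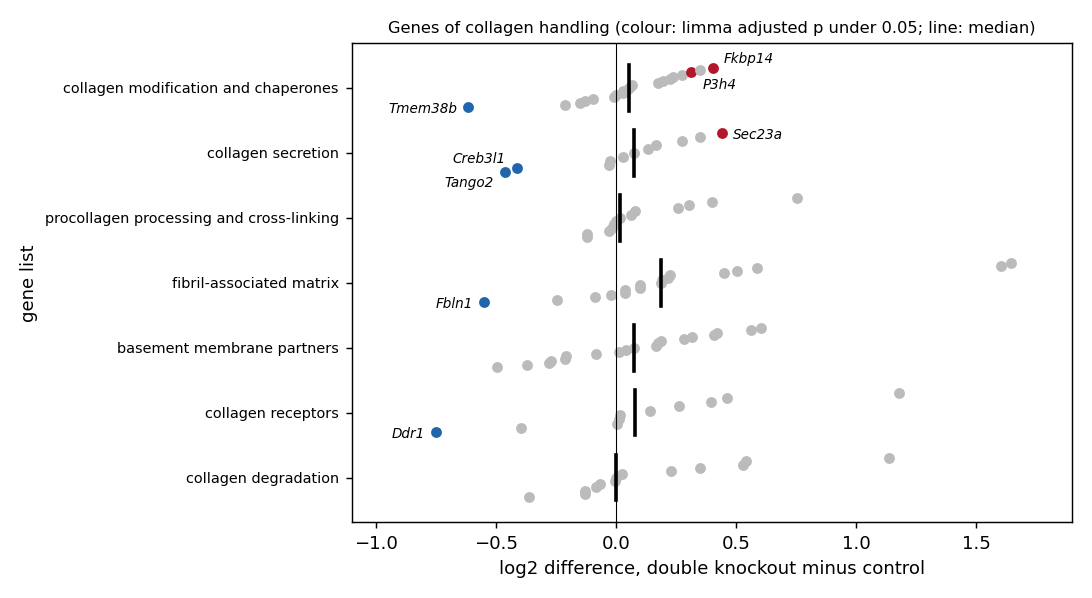
Each point is 1 tested gene of the list named on the y axis, placed by its log2 difference (double knockout minus control), in red or blue where it passed as higher or lower, with a line at the list's median. Ddr1 at -0.75 and Tmem38b at -0.62 are the lowest of the called genes and Sec23a at 0.44 the highest.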

How the data were processed

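The deposited table gives 1 whole-number value per gene and library, with Ensembl identifiers, symbols and biotypes. The tools named in the submitters' processing notes, without roles, are featureCounts 1.5.0, STAR 2.4.2a, Trimmomatic, DESeq and DESeq2, with the build mm10. The sources used here do not give the annotation or the strand and multi-mapping settings. The authors deposited a score, namely read counts scaled per library and rounded, as seen from whole numbers missing at even spacing below 400 in knockout 1 (every 18.7), control 2 (every 139) and control 3 (every 21.3). Depth in reads was therefore estimated for these libraries alone, at 18760300, 20054200 and 19265200 in that order, and count models were not used.

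Genes with a mean of at least 1 in either genotype were tested with limma 3.58.1 (R 4.3.3) on log2(value + 1). Moderation was robust and followed the mean value, and two-sided p-values were adjusted over all 26747 genes. The fit was tested on simulated data. Exon lengths (99.3% of identifiers matched), GC content and coding repeats came from GENCODE M21. Members, classes and lists were chosen with earlier results of these data known. Named were members past the threshold, the 2 with the highest mean value in each class and, per list, up to 3 called genes or the one with the highest mean value where none passed; the remaining members are given for completeness. Serpinh1, Ddr2 and single marker genes were named after their values were seen. One marker was matched by an older symbol. Alternatives covered scaling, filters, pseudocounts, moderation, GC content and length, replicate number and left-out libraries. By the male and female patterns, library 3 of each genotype came from other animals than libraries 1 and 2. Whether all libraries come from different animals is not said. The p-values reflect only how far these 6 libraries vary, which may in part be technical.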

Additional observations from a re-analysis of the deposited data

How the results depend on the processing

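The count of 3 higher collagen genes became 5 with no filter on low values, 5 with the GC and length trend removed, 1 without the robust option and 0 without both libraries numbered 3, where 2 libraries per genotype remain. With each library left out in turn it ranged from 1 to 5, and the count of lower collagen genes from 0 to 1. Over all genes (618 higher, 681 lower) the counts were 1121 higher with upper quartile scaling, 963 higher with no filter, 144 higher and 206 lower without the robust option, and 14 higher and 24 lower without both libraries numbered 3. They ranged from 186 to 608 higher and 234 to 739 lower with each library left out. For the genes of the 7 collagen-handling lists (3 higher, 5 lower), higher counts were 5 with median ratio scaling, 7 with upper quartile scaling, 12 with no filter, 5 with a minimum mean of 10, 1 without the robust option, 8 with the GC and length trend removed and 0 without both libraries numbered 3. Lower counts were 9 with no filter, 2 without the robust option and 0 without both libraries numbered 3. With each library left out they ranged from 0 to 6 higher and 2 to 9 lower. The cause of these shifts was not tested. Among genes with small differences, the sign turned for Col4a1 (0.037 with upper quartile scaling, 0.054 with the GC and length trend removed, -0.13 to 0.022 with a library left out) and Col4a2 (0.057 and 0.080 in those settings, and -0.10 to 0.037 with a library left out). With a library left out it also turned for Col16a1 (-0.22 to 0.33), Col5a2 (-0.052 to 0.20), Loxl2 (-0.019 to 0.20) and Mmp15 (-0.27 to 0.011). It turned as well for members given for completeness, among them Col9a1 (-0.072 to 0.80), Col9a3 (-0.47 to 0.33), Col1a2 (-0.38 to 0.074) and Col18a1 (-0.19 to 0.023). The values under alternatives were sorted only for Col2a1, Col9a2 and the genes named by the rule given above, without the members given for completeness. Of these values 316 kept their direction and side of the threshold, 53 lost the threshold, 9 gained it and 18 turned sign. Placing types XV and XVIII in the other class changed no count of calls by class.

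Library numbers did not pair the samples: deviations of knockout and control 1, 2 and 3 correlated at 0.05, 0.07 and 0.33, and knockouts 1 and 2 correlated better with the other's control. With library number as a replicate block 6 collagen genes were higher and 9 genes of the lists. The 6 were Col20a1, Col12a1, Col23a1, Col6a3 (adjusted p = 1.10e-05), Col6a6 (8.89e-06) and Col14a1 (0.000297), while P3h4 no longer passed (0.0893). With the block and the GC and length trend removed the counts were 7 and 17 (Col4a1 at 0.054 and Col4a2 at 0.080).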

Other observations

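Other cell type markers were read beside the collagen genes, as values without an explanation. Among 10 cardiomyocyte markers 1 rose (Pln) and 1 fell (Myh6), and their summed value was 512298 to 549940 in knockouts and 585499 to 611687 in controls. Myh6 alone averaged 79505 ± 9261 in knockouts and 139844 ± 8691 in controls (SD, n = 3 each), and the sum averaged 533664 ± 19330.2 in knockouts and 596423 ± 13623 in controls, so that Myh6 held most of the difference between the sums. Of 8 macrophage markers 1 rose, Ptprc, the pan-leukocyte antigen, with 30, 31 and 35 in knockouts, against 15, 12 and 12 in controls (1.24 ± 0.27, limma adjusted p = 0.00910). This was 12.5% of the list, against 4.86% of all tested genes. The summed value of the 8 macrophage markers was 539 to 774 in knockouts and 353 to 526 in controls. Of 8 neural crest and Schwann cell markers 0 were called with limma and 1 had an unadjusted p under 0.05, with a median difference of 0.18. Of 8 erythroid markers 0 were called with limma, 0 had an unadjusted p under 0.05, and 8 had a positive difference. Their summed value was 102659, 134979 and 145419 in knockouts, against 48895, 94241 and 134429 in controls, so that control 1 was far below the other libraries.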
